A study of Mus musculus with 4 samples.

Results

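Compact sites at which BAP1, HCF1 and OGT were called together with coinciding peak centres were examined in mouse bone marrow derived macrophages. The peak lists of the 3 proteins were merged, and regions on chromosomes 1 to 19 were selected where they were under 5000 bp and held a peak of each protein. The highest-scoring peak of each protein then stood for it, and a region was chosen as a member when all pairs of peak centres lay within 250 bp. Of 34834 merged regions, 5691 autosomal ones held all 3 proteins, 5337 of these were compact, and 1950 met the limit on the centres. The other compact regions, 3387 in number, are called offset sites below. The members were thus chosen by the measured positions and scores of the peaks, and the distance between centres and the region width are given as description, with no test.

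The cells were primary macrophages of strain C57BL/6, grown in medium conditioned by L929 cells and not treated further. BAP1 was precipitated with anti-FLAG from cells of the genotype BAP1-3X Flag Tagged KI, a knock-in that puts a FLAG tag on BAP1. HCF1 was precipitated with anti-HCF1 and OGT with anti-OGT1, both from BAP1 WT cells, and an input library came from BAP1 WT cells as well. The BAP1 list is named after wild-type macrophages, whereas the labels give the knock-in, and the labels were followed. Each protein was mapped in 1 library. Values therefore come without replicate error, and no difference between groups of sites could be tested over libraries. An anti-FLAG precipitate from untagged cells was not analysed here. The labels do not give the age of the mice.

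BAP1 is a nuclear deubiquitinase that removes ubiquitin from histone H2A and is a tumour suppressor. HCF1 is a chromatin-bound cofactor that has no DNA-binding domain of its own and is brought to promoters by transcription factors. OGT attaches O-GlcNAc to nuclear and cytosolic proteins and also cleaves HCF1 into its mature subunits. BAP1 contacts HCF1 through a short HCF1-binding motif, and the proteins have been purified in common complexes. Loss of Bap1 in mouse marrow leads to a myeloid disease, and macrophages belong to that lineage.

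There were 31421 peaks of HCF1, 17662 of BAP1 and 10337 of OGT. The read depth behind each is unknown, since the lists give no read totals. Each peak carries a score by the authors, used here as a percentile within its own list, where 100 is the highest score. The highest-scoring peaks that stood for the members were 6.31% of the autosomal HCF1 peaks, 11.2% of the BAP1 peaks and 19.1% of the OGT peaks. Further peaks of the same protein in a member are not counted in these shares. They made up 34.3% (33.0 to 35.5%) of the autosomal regions with all 3 proteins and 36.5% (35.2 to 37.8%) of the compact ones. Intervals are exact Clopper-Pearson 95% intervals for shares and order-statistic intervals for medians. They cover counting error only. The peaks are placed in genome build mm9 and no annotation of that build was used, so sites are given by position and no gene is assigned to them. For the same reason the labelled cell type was not checked against marker genes.

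The centres of the members were tightly grouped, as the choice requires. The median distance was 77 bp between BAP1 and HCF1, 84.8 bp between HCF1 and OGT, and 85 bp between BAP1 and OGT. The largest of the 3 distances had a median of 142 bp and quartiles of 91.6 and 195.5 bp. All centres lay within 100 bp at 566 sites (29.0%), within 50 bp at 164 (8.41%) and within 25 bp at 46 (2.36%). A gap does not separate members from offset sites: the distances of the compact shared regions ran on without a break through the limit, and the offset sites had a median of 510 bp. The members are therefore the lower end of a continuous range.

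**Figure D1:**
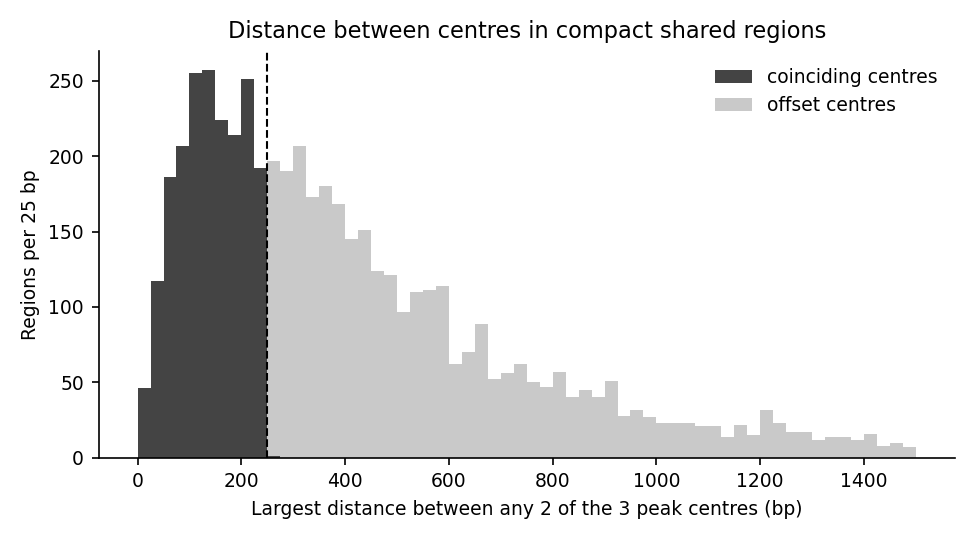
Number of compact regions with all 3 proteins per 25 bp (y axis) by the largest distance between any 2 of the 3 peak centres in bp (x axis). Dark bars are the 1950 coinciding sites, grey bars the offset sites, and the dashed line is the limit of 250 bp; 148 offset sites lie beyond the 1500 bp shown. The counts pass through the limit without a gap.

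Just inside the limit lay chr11:96835555-96837033, where the BAP1 and HCF1 centres were 250 bp apart. Both peaks there were 1229 bp wide and shifted against each other, with the OGT peak of 955 bp between. Next to it came chr1:58851631-58853111, at 249.5 bp. Just outside, chr6:82722798-82725297 and chr2:102783620-102785125 both had a largest distance of 250.5 bp. The lowest percentile of the 3 proteins was 28.4 and 73.3 at the sites inside the limit and 87.1 and 75.1 at those outside it. So few sites cannot tell whether scores change at the limit.

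BAP1 peaks were mostly the broadest at the members and OGT peaks mostly the narrowest. The median width was 1346 bp for BAP1 (quartiles 1109 and 1710 bp), 1123 bp for HCF1 (823 and 1581 bp) and 946 bp for OGT (736 and 1274 bp). The BAP1 peak was the widest at 1343 sites, 68.9% (66.8 to 70.9%), and the OGT peak the narrowest at 1161, 59.5% (57.3 to 61.7%). At offset sites the medians had the same order, with BAP1 widest at 53.9% (52.2 to 55.6%) and OGT narrowest at 72.2% (70.6 to 73.7%). Over the whole lists HCF1 rather than OGT had the narrowest peaks, its median being 731 bp where that of OGT was 912 bp and that of BAP1 1243 bp.

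Seen from the BAP1 peak, both partners lay within its ends at 931 members, 47.7% (45.5 to 49.99%). The OGT peak was inside the BAP1 peak at 73.0% (71.0 to 74.99%) of members and the HCF1 peak at 58.3% (56.0 to 60.5%). The reverse was infrequent, with BAP1 inside HCF1 at 13.2% and inside OGT at 5.23%. OGT lay inside HCF1 at 44.1% and HCF1 inside OGT at 21.9%. A full ladder of OGT inside HCF1 inside BAP1 occurred at 323 members (16.6%), and HCF1 inside OGT inside BAP1 at 226 (11.6%). Among offset sites both partners lay within the BAP1 peak at 22.8% (21.4 to 24.3%). Peaks with close centres nest more readily, so this contrast follows in part from the choice of members.

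The BAP1 peak reached out to both sides alike. It extended past the HCF1 peak by a median of 125 bp on the left and 128.5 bp on the right, and past the OGT peak by 186 and 188 bp. The HCF1 peak extended past the OGT peak by 54 bp on the left and 51 bp on the right. The signed distance between the BAP1 and HCF1 centres had a median of -2.25 bp (interval -8.5 to 5.5 bp), and that between BAP1 and OGT a median of -0.5 bp (-7.5 to 7.5 bp). Left and right are directions of the chromosome, not of transcription, so an offset along genes would not show here.

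**Figure D2:**
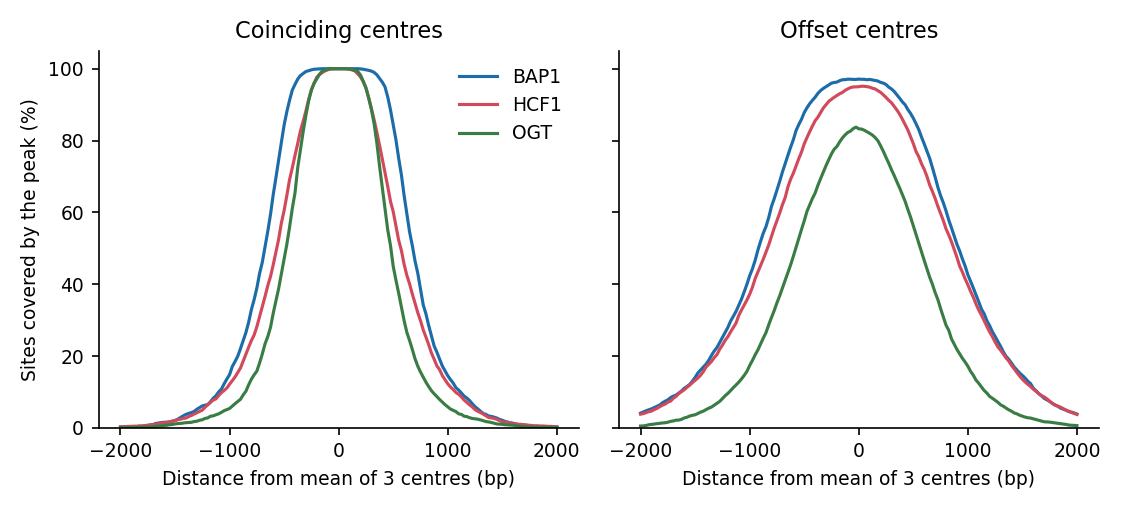
Share of sites covered by the chosen peak of each protein (y axis, percent) by distance from the mean of the 3 centres in bp (x axis), for the 1950 coinciding sites (left) and the 3387 offset sites (right). At coinciding sites all 3 peaks cover the centre, and 500 bp to the left of it BAP1 still covers 84.3%, HCF1 60.5% and OGT 47.0% of sites.

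No protein held a fixed place in the order of the centres. The BAP1 centre lay strictly between the other two at 34.9% (32.8 to 37.1%) of members, the HCF1 centre at 33.9% (31.8 to 36.0%) and the OGT centre at 30.9% (28.8 to 33.0%). At offset sites the OGT centre was between the others at 23.9% (22.5 to 25.4%) and the BAP1 centre at 40.7% (39.0 to 42.4%). Among offset sites, the BAP1 and HCF1 centres still lay within 250 bp of each other at 42.1%, against 32.2% for BAP1 and OGT and 28.5% for HCF1 and OGT. For 906 offset sites (26.7%) BAP1 and HCF1 were the only pair that met the limit.

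A stretch covered by the chosen peaks of all 3 proteins was present at each of the 1950 members. The choice of members brings this about, since peaks of these widths with centres within 250 bp must overlap. The narrowest chosen peaks were 457 bp for BAP1, 232 bp for HCF1 and 274 bp for OGT. Its median length was 833 bp (quartiles 651 and 1136 bp), 58.8% of the merged region. At offset sites the common stretch was of like length, with a median of 804 bp, but made up 36.5% of the region, and 300 of them had no such stretch. The ends of the peaks coincided far less than their centres: all 3 starts lay within 100 bp at 7.03% of members, all 3 ends at 8.51%, and both at 10 sites (0.513%). Members were chosen by their centres and not by their ends, so this contrast follows in part from the choice.

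Members were small and simple regions. The merged regions had a median width of 1518 bp, and offset sites a median of 2350 bp. Each protein had exactly 1 peak at 1730 members, 88.7% (87.2 to 90.1%), compared with 64.2% (62.5 to 65.8%) of offset sites. The gap was smaller at like region width, where the shares were 97.2% (95.8 to 98.2%) and 94.8% (91.5 to 97.0%) from 1000 to 1500 bp and 88.5% (85.6 to 91.0%) and 82.5% (79.8 to 85.1%) from 1500 to 2000 bp. It was 73.4% against 65% from 2000 to 3000 bp and 53.2% against 36.1% from 3000 to 5000 bp. Extra peaks came mostly from HCF1: 99.3% of members held 1 BAP1 peak, 97.5% held 1 OGT peak and 90.7% held 1 HCF1 peak. How often a compact shared region was a member depended on its width. The share was 96.2% of the 158 regions under 1000 bp, 73.4% from 1000 to 1500 bp, 41.2% from 1500 to 2000 bp, 20.6% from 2000 to 3000 bp and 7.99% from 3000 to 5000 bp. A narrow region leaves little room for centres to differ, which ties the members to width by construction.

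HCF1 ranked high at the members and OGT close to the middle of its list. The median score percentile was 78.7 (77.8 to 79.8) for HCF1, 65.6 (63.4 to 67.6) for BAP1 and 58.7 (57.0 to 60.6) for OGT. The deposited scores behind these had medians of 284 for HCF1, 158 for BAP1 and 100.2 for OGT, which are not comparable between lists. OGT was the lowest-ranked of the 3 at 54.1% (51.9 to 56.3%) of members and BAP1 at 36.8%, while HCF1 was the lowest at 9.08%. HCF1 was the highest-ranked at 56.2% (54.0 to 58.4%). Offset sites had the same order, with OGT lowest at 62.9% and HCF1 highest at 61.6%. The lists differ in length, with 31421 HCF1, 17662 BAP1 and 10337 OGT peaks. A given percentile thus leaves a different number of peaks above it in each list. How far the order of the proteins by percentile reflects list length was not tested. All 3 proteins stood above the 50th percentile at 808 members (41.4%), above the 75th at 269 (13.8%) and above the 90th at 72 (3.69%).

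Over all sites, with no account of width, offset sites ranked higher for BAP1 and HCF1 but hardly for OGT. Their medians were 76.8 (75.6 to 78.0) for BAP1, 87.8 (87.0 to 88.4) for HCF1 and 60.04 (58.6 to 61.5) for OGT. The HCF1 peak was in the top decile of its list at 42.9% of offset sites and 25.8% of members, and the BAP1 peak at 25.9% and 14.9%. For OGT the shares were 12.1% and 10.6%, with overlapping intervals.

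**Figure D3:**
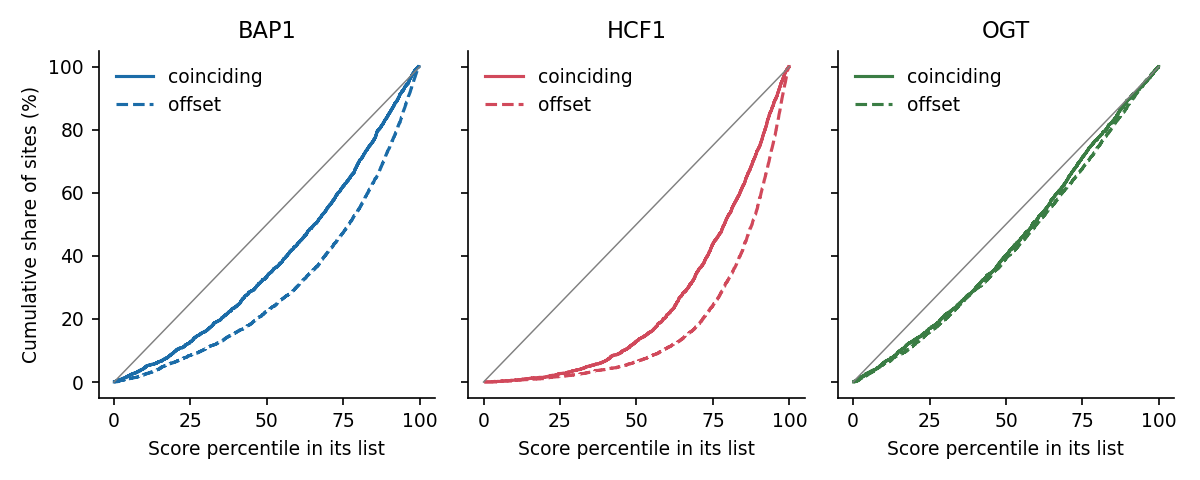
Cumulative share of sites (y axis, percent) by the score percentile of the chosen peak within its list (x axis), with 1 panel per protein, solid lines for the 1950 coinciding and dashed lines for the 3387 offset sites. The grey diagonal is a list's own distribution. The dashed lines run to the right of the solid ones for BAP1 and HCF1, and the 2 lines nearly coincide for OGT.

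These differences in rank went together with peak width. Members had narrower peaks than offset sites, with 1346 against 1790 bp for BAP1, 1123 against 1689 bp for HCF1 and 946 against 1042 bp for OGT. Score and width also rose together across members, with a Spearman rho over the 1950 sites of 0.62 in the BAP1 list, 0.75 in the HCF1 list and 0.56 in the OGT list. When compact sites were split into quintiles of each protein's own peak width, the median percentiles of members and offset sites had overlapping intervals in all 15 classes. The members had the higher median in 13 classes and the offset sites in 2, and the largest difference was 5.10 percentile points. In the middle BAP1 width class, for instance, the medians were 76.7 (74.3 to 79.6) for members and 74.997 (72.8 to 76.9) for offset sites, where the difference over all sites was 65.6 against 76.8. At like width of the peak itself, the median ranks of members and offset sites thus lay close together, mostly a little higher at members. Overlapping intervals do not show that the ranks were equal, and the difference was not tested.

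Split by the width of the merged region instead, members mostly ranked above offset sites, the reverse of the order over all sites. From 1500 to 2000 bp the median percentiles of members and offset sites were 74.9 (72.2 to 77.1) and 66.1 (63.3 to 67.8) for BAP1, 83.8 (82.3 to 85.2) and 79.7 (78.1 to 81.6) for HCF1, and 60.8 (57.7 to 64.4) and 49.7 (46.6 to 53.5) for OGT. OGT ranked higher at members in each class from 1000 bp upwards, with 50.8 (48.3 to 54.6) against 35.2 (31.8 to 42.1) from 1000 to 1500 bp, 72.6 (68.2 to 76.5) against 61.4 (59.2 to 63.4) from 2000 to 3000 bp, and 87.1 (76.9 to 90.5) against 74.9 (72.4 to 77.0) from 3000 to 5000 bp. For BAP1 the intervals overlapped in the other classes, with medians of 51.2 and 51.5 from 1000 to 1500 bp and 88.3 and 88.4 from 3000 to 5000 bp. A region of a given width holds wider peaks where they are centred together: from 1500 to 2000 bp the OGT peaks had a median width of 1128 bp at members and 885 bp at offset sites. How members ranked against offset sites therefore depended on whether width was held alike, and on which width.

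Across the members, BAP1 and HCF1 were the pair whose scores went together most. The Spearman rho across the 1950 sites was 0.60 for BAP1 and HCF1, 0.31 for HCF1 and OGT, and 0.24 for BAP1 and OGT. Peak widths gave 0.70, 0.57 and 0.57 in the same order. The sites are not independent replicates, each list is 1 library, and all 3 lists were paired with a macrophage input, so these are descriptions. At offset sites the score correlations were 0.51, 0.32 and 0.22, and the width correlations were 0.40, 0.38 and 0.29.

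The most closely centred members were not those with the highest scores. The 164 members with centres within 50 bp had median percentiles of 54.4 for BAP1 and 72.5 for HCF1, and the 438 members between 200 and 250 bp had 72.8 and 82.3. For OGT the medians were 60.6 and 60.4. Peak widths ran the same way, with BAP1 medians of 1223 and 1471 bp and HCF1 medians of 879 and 1288 bp.

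Seen from each list, the share of peaks that were the chosen peak of a member rose with score, to a different end in each. For HCF1 it went from 0.356% (0.178 to 0.636%) in the lowest decile to 16.1% (14.9 to 17.5%) in the highest. For BAP1 it went from 5.06% (4.08 to 6.20%) to 17.3% (15.5 to 19.1%) in the ninth decile and 16.5% (14.8 to 18.3%) in the highest. For OGT it started at 11.7% (9.82 to 13.9%), reached 25.02% (22.4 to 27.8%) in the eighth decile and was 20.1% (17.7 to 22.7%) in the highest. The intervals of the eighth and the highest OGT decile overlap slightly. In the highest decile, the chosen peaks of offset sites were 49.9% of the BAP1, 46.5% of the HCF1 and 40.0% of the OGT peaks. Weaker peaks of the same protein in a region are not counted, so the choice of peaks itself favours higher scores.

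**Figure D4:**
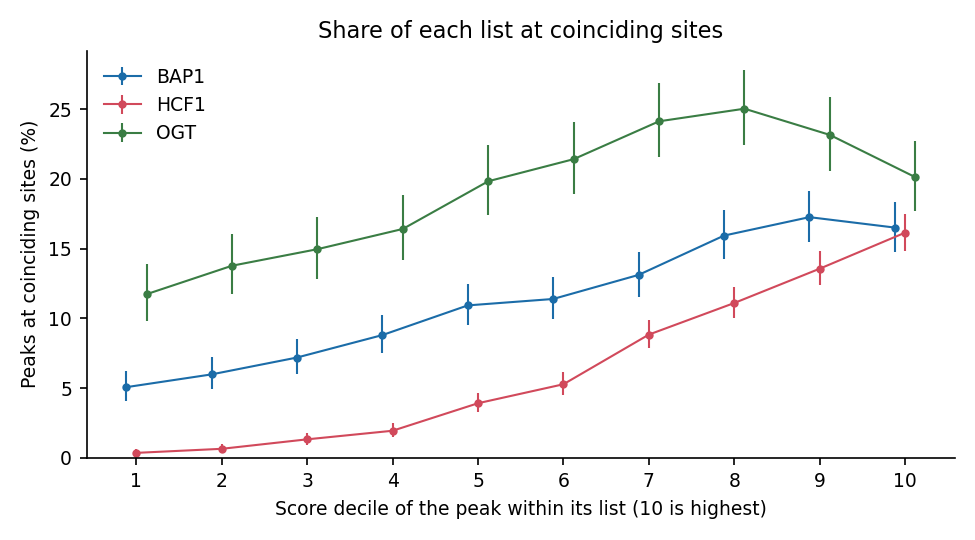
Share of the autosomal peaks of each list that are the chosen peak of a coinciding site (y axis, percent) by score decile within the list (x axis, 10 is the highest). Bars are exact 95% intervals for counting error. HCF1 rises to 16.1% in the highest decile, while OGT reaches 25.02% in the eighth and 20.1% in the highest.

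Pairs of proteins also had coinciding centres where the third protein was not called. Among compact autosomal regions with BAP1 and HCF1 but no OGT peak, 4921 of 6878 had centres within 250 bp, 71.5% (70.5 to 72.6%). With OGT present the share for this pair was 63.2% (61.9 to 64.5%). For HCF1 and OGT it was 68.5% (66.3 to 70.7%) without BAP1 and 54.6% (53.3 to 56.0%) with it. For BAP1 and OGT it was 77.3% (72.1 to 81.9%) of 295 regions without HCF1 and 57.0% (55.6 to 58.3%) with it. Close centres of a pair were thus no more frequent where the third protein was present, but region width was not held alike in this comparison. Peaks were wider there: the coinciding BAP1 and HCF1 peaks had median widths of 1496 and 1321 bp with OGT and 1189 and 878 bp without. Their median percentiles were 70.4 and 83.0 with OGT and 50.1 and 64.7 without.

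The members often had HCF1 neighbours. Another HCF1 peak, outside the merged region, lay within 1000 bp of 24.97% (23.1 to 27.0%) of members and within 5000 bp of 50.1%. For BAP1 the shares were 10.8% and 33.7%, and for OGT 7.59% and 24.5%. The HCF1 list is also the longest. The median gap to the next peak of any list was 3903 bp. At offset sites another HCF1 peak lay within 1000 bp at 30.0% (28.5 to 31.6%). At like region width the contrast did not hold in most classes, and the intervals overlapped in each. Members had the higher share in 4 of 5 width classes, such as 24.1% against 21.7% from 1000 to 1500 bp and 42.9% against 38.3% from 3000 to 5000 bp. The class under 1000 bp held only 6 offset sites. The exception was 1500 to 2000 bp, with 23.0% of members and 27.4% of offset sites.

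Members lay on every autosome. They made up between 31.0% (25.8 to 36.7%) of the compact shared regions on chromosome 1 and 46.0% (38.5 to 53.7%) on chromosome 16. Chromosome 11 held the most, 180 members or 9.23%, and 8.88% of all autosomal peaks. Most members were far apart, with a median distance of 125 kb to the nearest other member, which lay within 10000 bp for 186 of them (9.54%). The closest pair, chr1:193076921-193077988 and chr1:193078002-193079007, had mean centres 968 bp apart.

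Members were unevenly spread. The spread of all compact shared regions was not set beside theirs, so unevenness cannot be called particular to members. Of the 899 windows of 1 Mb with a member, 436 held 1. The fullest, on chromosome 7 from 134000001 to 135000000, held 17 of the 27 compact shared regions there. The next was also on chromosome 7, from 52000001 to 53000000, with 13 of 23, followed by chromosome 10 from 79000001 to 80000000 with 11 of 32. The 17 members of the fullest window were ordinary in size, from 1006 to 2801 bp, and their lowest percentile ran from 15.0 to 89.4. All 3 proteins stood above the 50th percentile at 11 of them.

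The 10 members with the highest rank in all 3 lists were broad for compact sites, from 2676 to 4242 bp, and lay on 8 chromosomes. The first, chr7:26470942-26475183, scored 882 in the BAP1, 1856 in the HCF1 and 940 in the OGT list, all above the 99th percentile of their lists. Its peaks were 4241, 4064 and 3708 bp wide and shared 3708 bp, the whole of the OGT peak, with centres at most 89.5 bp apart. It was not isolated, since the next HCF1 peak began 137 bp away. The second, chr19:46411990-46414846, scored 709 for BAP1, 1394 for HCF1 and 970 for OGT. There the order of widths was turned around, with OGT widest at 2837 bp, HCF1 at 2674 bp and BAP1 narrowest at 2476 bp. The third, chr1:95374078-95376753, carried the highest HCF1 score of the 10, 3100, with 895 for BAP1 and 631 for OGT.

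The fourth to the sixth were chr16:8829101-8832261, chr2:156687397-156690488 and chr10:79620696-79624184. The last of these lies in the chromosome 10 window named above, and its peaks nearly coincided as a whole, with widths of 3475 bp for BAP1, 3462 bp for HCF1 and 3249 bp for OGT. The seventh, chr11:106647841-106651935, had the highest BAP1 score of the 10, 1233, with 2913 for HCF1 and 519 for OGT. The remaining ones were chr11:69482710-69486742, chr9:78328261-78331008 and chr1:173318337-173321285. Over the 10 sites, the common stretch ran from 2100 to 3708 bp. The BAP1 peak was the widest at 4 of them, HCF1 at 3 and OGT at 3.

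**Figure D5:**
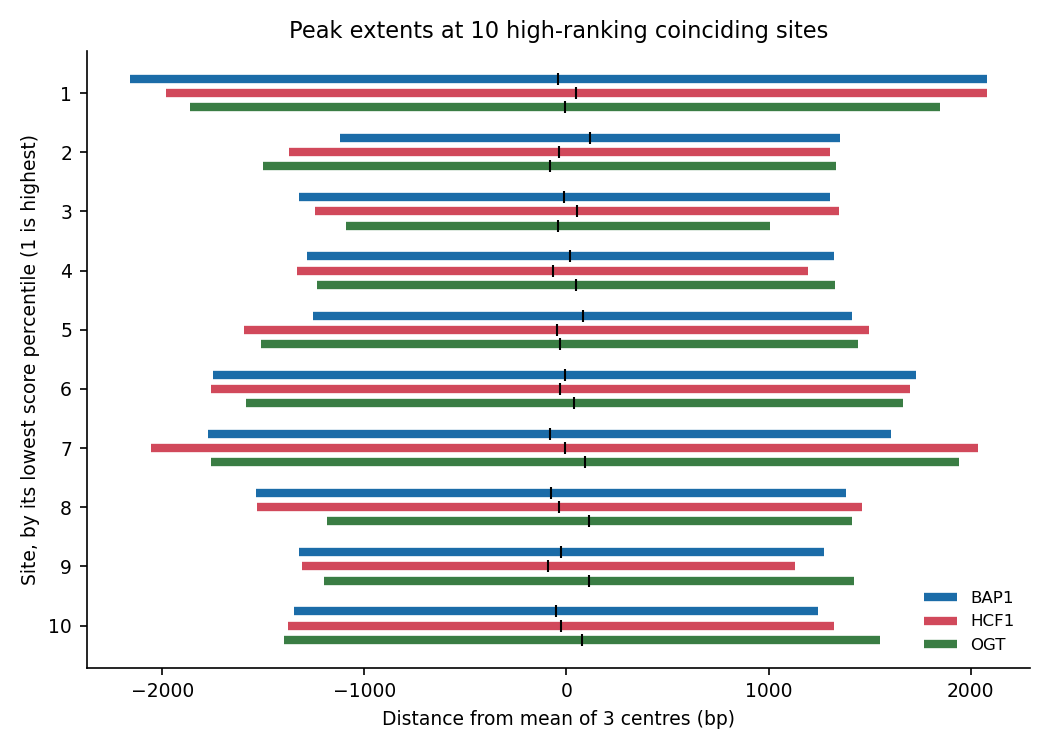
Extent of the chosen BAP1, HCF1 and OGT peaks (x axis, bp from the mean of the 3 centres) at the 10 coinciding sites whose lowest score percentile was highest (y axis, 1 is the highest). Black ticks mark peak centres. The peaks of a site are of like width, between 2100 and 4241 bp, and their centres lie at most 202.5 bp apart.

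The 5 members with the closest centres differed in rank, with a lowest percentile of 91.0 at the first and under 50 at the others. At chr3:5860460-5860991 the 3 centres fell on the same base. This region was also the second narrowest of all members, at 532 bp, with peaks of 532 bp for BAP1, 368 bp for HCF1 and 420 bp for OGT. Its scores were high for such narrow peaks: 675 for BAP1 (percentile 98.2), 2001 for HCF1 (99.4) and 282 for OGT (91.0). The nearest other peak of any list was 283402 bp away. Repeated sequence was not filtered at this or any other site. The next closest, chr17:71875719-71877002, had centres at most 2.5 bp apart and a plain nest of 1284, 1201 and 681 bp. Its BAP1 score of 76.56 stood at percentile 28.7.

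Then followed chr5:148671472-148673351 at 5.5 bp, chr16:87432179-87433385 at 6 bp and chr5:31397302-31398421 at 6.5 bp. Their lowest percentiles were 45.6, 15.0 and 26.3. At chr16:87432179-87433385 the OGT peak scored only 56.2, close to the lower limit of its list.

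The narrowest member was chr1:104524561-104525031 at 471 bp, with an HCF1 peak of 272 bp, and the third narrowest chr9:3029914-3030456 at 543 bp. Their scores were 94.59 and 156 for BAP1, 183 and 260 for HCF1, and 62.17 and 186 for OGT. The widest were chr7:142843130-142847946 at 4817 bp, chr11:100562233-100566930 at 4698 bp and chr11:69221603-69226011 at 4409 bp. The first of these held 2 BAP1 and 2 HCF1 peaks, and the stretch common to its chosen peaks was 1392 bp. At the second, HCF1 and OGT stood at percentiles 98.9 and 96.4 while BAP1 stood at 40.6. The third had an OGT score of 2168 (99.9), HCF1 at 1733 (99.2) and BAP1 at 251 (82.5).

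The 5 members with the lowest percentile in any list had their weak peak in BAP1 or OGT, while the lowest HCF1 score at any member was 50.28, at percentile 0.781. At chr19:6931626-6933302 the BAP1 score was 50.04, against 185 for HCF1 and 112 for OGT. At chr4:40724085-40725076 BAP1 scored 50.05 and OGT 256, at percentile 89.4 of its list. At chr16:22358440-22359428 BAP1 scored 50.05 and OGT 52.13, with HCF1 at 190. At chr2:11944677-11946029 and chr1:169260747-169261988 the OGT scores were 50.05 and 50.11. HCF1 was the lowest-ranked protein at none of these 5.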

How the data were processed

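ChIP-seq peak lists of BAP1, HCF1 and OGT, 1 library each, were analysed; the input library had no list analysed here. Per the labels' protocols, fragments of 175 to 225 bp were selected, amplified for 18 cycles and sequenced on a Genome Analyzer II. GSNAP, MACS 1.4 and build mm9 are named in the submitters' processing notes, without settings. Each peak has a score, deposited by the authors with no definition and never under 50, which served as a rank within its list. Starts were read as counted from 0; positions are printed counted from 1.

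Regions were merged and members chosen with Python 3.11.15, pandas 2.3.3 and scipy 1.17.1; the procedure was tested on simulated regions and against bedtools 2.31.1. The percentile of a score is its mean rank in the whole list. Shares have exact Clopper-Pearson intervals. The members, comparisons and alternatives were chosen with earlier results of these data known, and the comparisons by peak width and region width after these values were seen. Sites named are those highest in all 3 lists (10), with the closest centres (5), next to the 250 bp limit, narrowest, widest (3 each) and lowest in any list (5). Gene lists and motifs set for an mm9 annotation were not used. No molecular identifiers are described for the PCR, and depth is unknown.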

Additional observations from a re-analysis of the deposited data

Results flagged for a closer look

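On the X chromosome, which the choice of members leaves out, 35 regions held all 3 proteins and 33 of these were compact. Of the compact ones, 19 had coinciding centres by the same limit, 57.6% (39.2 to 74.5%), against 36.5% on the autosomes, where single chromosomes ranged from 31.0 to 46.0%. The compact regions on X were narrower, with a median of 1517 bp against 2028 bp, and the part of width in this share was not tested. On Y and on sequence outside the assembled chromosomes 15 regions held all 3 proteins.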

How the results depend on the processing

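Joining peaks only where they share 1 bp, taking the centre from the widest peak, and including X left 1951, 1937 and 1969 members, and 1950, 1918 and 1950 of the 1950 were kept. Under these alternatives the quantities rerun (the lowest and the single score percentiles, peak widths, nesting in BAP1, 1 peak of each protein, common stretch and BAP1 in the middle) stayed within their intervals; distances, neighbours, deciles, correlations, pairs and chromosomes were not rerun. The limits on distance and score did set the results. With centres within 100 bp, 566 members remained, with a median lowest percentile of 40.4, a median peak width of 1059 bp, both partners inside the BAP1 peak at 69.8%, 1 peak of each protein at 90.1% and a common stretch of 804 bp. With centres within 500 bp, 3607 members had values of 45.6, 1257 bp, 37.8% and 84.6%, and the BAP1 centre lay between the others at 37.4%. With a score of at least 100 in each list, 728 members had values of 70.2, 1435 bp, 41.3% and 96.4% and a common stretch of 1117 bp. With regions under 3000 bp the peak width was 1141 bp and the share with 1 peak of each 90.2%. Peaks trimmed to 500 bp shared 357 bp. The main values were 42.4, 1161 bp, 47.7%, 88.7%, 34.9% and 833 bp. Restricting members to 1 peak of each protein, chosen after seeing the data, left 1730. Of the quantities rerun there, the BAP1 width left its interval, at 1322 bp against 1346 bp; the share with 1 peak of each is then complete by construction. Alternatives that need mm9 genes or sequence were not run. No paired analysis was possible because there was a single library for each target.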

Other observations

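Of the 152 members under 1000 bp, 18 had at least 1 protein above the 90th percentile of its list. OGT stood above it at 13 of the 152, HCF1 at 6 and BAP1 at 3. Among all 1950 members the shares above it were 10.6% for OGT, 25.8% for HCF1 and 14.9% for BAP1. For none of the 3 proteins was the share higher at the members under 1000 bp. All 3 proteins did so only at chr3:5860460-5860991, described above. At chr7:87975104-87976086, 983 bp wide, OGT scored 1349 (percentile 99.7), BAP1 124 (54.6) and HCF1 114 (53.4). At chr19:32383582-32384327, 746 bp wide, OGT stood at percentile 98.1, BAP1 at 46.3 and HCF1 at 41.0. A different pattern was found at chr8:19784340-19785215, where BAP1 stood at 97.5, HCF1 at 84.2 and OGT at 83.2. These sites were chosen after their values were seen.

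A run of 3 members lay side by side on chromosome 11, at chr11:3023088-3024525, chr11:3025065-3026393 and chr11:3026655-3028146. Going along the chromosome, their BAP1 scores were 445, 282 and 228, their HCF1 scores 433, 132 and 97.57, and their OGT scores 72.58, 98.38 and 102.6. BAP1 and HCF1 thus ran in the opposite order to OGT. This run was also chosen after its values were seen, and repeated sequence was not filtered here.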
